A study of Mus musculus with 5 samples.

Results

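The 10 genes followed here belong to growth factor and insulin signalling and were measured in heart muscle cells of adult mice. They are the 4 ERBB receptor genes Egfr, Erbb2, Erbb3 and Erbb4, the ERBB ligand gene Hbegf, the receptor genes Insr, Igf1r and Igf2r, and the insulin receptor substrate genes Irs1 and Irs2. They were chosen by symbol, and all 10 were among the 12446 genes of the deposited table. The cells were cardiomyocytes (CMs) isolated from hearts of male C57BL/6 mice whose age is given as 12 to 14 weeks. OSKM-CMs (3 libraries, replicates 1, 2 and 3) came from mice injected at 8 weeks with AAV9 vectors (adeno-associated virus) for 4 reprogramming factors: Oct4 with a His6 tag (AAV-cTnT-Oct4-His6), Sox2 with a Flag tag (AAV-cTnT-Sox2-Flag), Klf4 with an HA tag (AAV-cTnT-Klf4-HA) and Myc with a V5 tag (AAV-cTnT-Myc-V5). Control-CMs (2 libraries, replicates 3 and 5) came from mice given AAV-cTnT-BFP, a vector for blue fluorescent protein. All vectors carried the cardiac troponin T promoter, which is active in cardiomyocytes, so the controls too had received a virus with that promoter. Whether a library stands for 1 mouse or a pool of mice is not stated in the labels. The spread behind each p-value is therefore the spread among these 5 libraries and may be technical.

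ERBB receptors and the insulin and IGF1 receptors are tyrosine kinases of the cell surface that pass their signal to the PI3K-AKT and RAS-ERK pathways. In the heart, neuregulin from endothelial cells acts on cardiomyocytes through pairs of ERBB4 and ERBB2, while insulin and IGF1 receptors signal through the IRS proteins and govern glucose uptake, growth and survival. IGF2R differs from the other receptors: it has no kinase, removes IGF2 from the cell surface and carries enzymes tagged with mannose 6-phosphate to lysosomes.

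Of the members, Hbegf and Igf1r were higher in OSKM-CMs, by 2.78-fold and 3.00-fold, and no member passed the test as lower. That is 2 of the 9 members tested, or 22.2%, against 30.2% of all 10915 genes tested (limma, Benjamini-Hochberg adjusted p below 0.05), of which 15.9% were higher and 14.3% lower. The members' share thus did not exceed that of all genes. The test was run on log2 of RPKM plus 1, where RPKM (reads per kilobase of gene, relative to the reads of the library) had been scaled between libraries by TMM, a trimmed mean of log ratios. The added 1 makes log2 fold changes of low genes smaller than the folds of mean RPKM, which are also given. Egfr had a mean RPKM under 1 and was left out of the test by the filter on low values. The median log2 fold change was 0.25 over the 9 tested members and 0.02 over all tested genes. Libraries of 4 of the 9 members did not overlap between groups, 44.4%, against 57.9% of all tested genes. In 3 members all OSKM libraries lay above both controls (30% of all tested genes) and in 1, Insr, below (27.9%).

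The promoters of 3 members are shown from RefSeq, each window running from 250 bases before to 50 bases after the start (GRCm38.p6). They belong to the receptor gene that rose, Igf1r, and to the substrate genes Irs2, whose level stood apart in 1 control library, and Irs1, whose level did not. Capitals mark matches, on either strand, to the E-box CACGTG, which MYC binds with its partner MAX, and to the GC box GGGCGG, read as CCGCCC on the other strand, which SP and Krüppel-like factors bind.
Igf1r, chr7:67952007-67952306, plus strand: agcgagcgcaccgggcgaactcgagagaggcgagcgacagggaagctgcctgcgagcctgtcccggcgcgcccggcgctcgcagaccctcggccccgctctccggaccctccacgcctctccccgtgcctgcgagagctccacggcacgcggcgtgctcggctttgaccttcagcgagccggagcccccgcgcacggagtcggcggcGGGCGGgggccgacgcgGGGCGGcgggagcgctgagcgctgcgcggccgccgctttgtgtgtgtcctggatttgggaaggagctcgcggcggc
Irs2, chr8:11008880-11009179, minus strand: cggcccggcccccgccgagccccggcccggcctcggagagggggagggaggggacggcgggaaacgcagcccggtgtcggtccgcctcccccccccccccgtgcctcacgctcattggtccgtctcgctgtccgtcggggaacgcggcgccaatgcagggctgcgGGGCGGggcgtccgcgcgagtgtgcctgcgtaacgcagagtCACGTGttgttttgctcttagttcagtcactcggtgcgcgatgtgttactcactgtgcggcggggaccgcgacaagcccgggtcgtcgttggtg
Irs1, chr1:82291390-82291689, minus strand: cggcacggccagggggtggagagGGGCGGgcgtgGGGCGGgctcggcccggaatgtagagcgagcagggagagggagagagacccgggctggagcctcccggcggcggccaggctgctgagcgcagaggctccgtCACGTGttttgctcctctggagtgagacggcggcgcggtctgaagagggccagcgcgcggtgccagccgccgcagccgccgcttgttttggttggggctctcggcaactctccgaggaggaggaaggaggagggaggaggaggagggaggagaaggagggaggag
The Igf1r window held 2 GC boxes and no E-box. The Irs2 window held 1 of each, and that of Irs1 held 2 GC boxes and 1 E-box. Promoters of 7 of the 10 members were used. Hbegf was left out because promoters on its chromosome were not used for the members, and Insr and Erbb3 had no usable entry. Of those 7, 5 held a GC box, 3 an E-box (Igf2r, Irs1 and Irs2) and 0 the octamer ATGCAAAT to which OCT4 binds. Over all 32851 promoters of the same length, 35.7% held a GC box, 7.15% an E-box and 1.74% the octamer. The 7 windows had 55.3% to 76% G and C, against a median of 52.7% in all promoters. A match describes the letters and says nothing of binding in these cells.

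Reads over the listed genes totalled 2691796 to 3861805 per library, and reads per gene were recovered from the RPKM. All 4 delivered factors were higher in OSKM-CMs, with Myc at 35.2, 28.4 and 21.5 scaled RPKM in OSKM-CMs replicates 1, 2 and 3, against 0.474 and 0.598 in Control-CMs replicates 3 and 5. Cardiomyocyte identity was clear in every library: the 8 cardiomyocyte markers summed to 15219 to 18402 scaled RPKM in OSKM-CMs and 27102 and 29728 in Control-CMs, with 7 of 8 lower in OSKM-CMs (5 lower and 1 higher with library totals in place of TMM). Markers of other cells also differed with the groups. Of 8 fibroblast markers tested, 4 were higher, namely Postn, Col1a2, Col3a1 and Col1a1. The others, Pdgfra, Dcn, Lum and Dpt, did not pass (limma adjusted p = 0.280, 0.323, 0.528 and 0.897). With limma voom on the recovered reads, of the 4 higher genes only Col3a1 passed (adjusted p = 0.0159). Postn, Col1a1 and Col1a2 did not (limma voom adjusted p = 0.0534, 0.0647 and 0.0774). The fibroblast list summed to 92.0 to 207 in OSKM-CMs against 74.9 and 37.9 in Control-CMs replicates 3 and 5. Endothelial markers summed to 45.0 to 92.0 in OSKM-CMs against 138 and 106 in Control-CMs replicates 3 and 5, with 2 of 10 lower (Kdr and Egfl7), a count of 1 without Control-CMs replicate 3 and of 5 without OSKM-CMs replicate 1. Mural markers had 2 of 7 higher (1 without Control-CMs replicate 5) and 1 lower (2 without OSKM-CMs replicate 1). The higher genes were Cspg4 (log2 fold change 3.07, limma adjusted p = 5.18e-05) and Pdgfrb (0.89, limma adjusted p = 0.0109). Mural markers summed to 76.7 to 111 in OSKM-CMs against 168 and 149 in Control-CMs. Of these sums the lower gene, Abcc9, made up 12.1 to 16.6 in OSKM-CMs against 81.9 and 79.6 in Control-CMs. In addition, 0 of 4 leukocyte markers tested passed (sums of 7.32 to 31.8 in OSKM-CMs against 46.4 and 12.2 in Control-CMs). Of 10 Schwann cell markers, 2 were listed. S100b was higher, with 131 reads in OSKM-CMs and 0 in Control-CMs. The part of other cells in the results below was not tested. In bulk RNA, fewer cells of a type and less RNA per cell cannot be told apart.

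**Figure D1:**
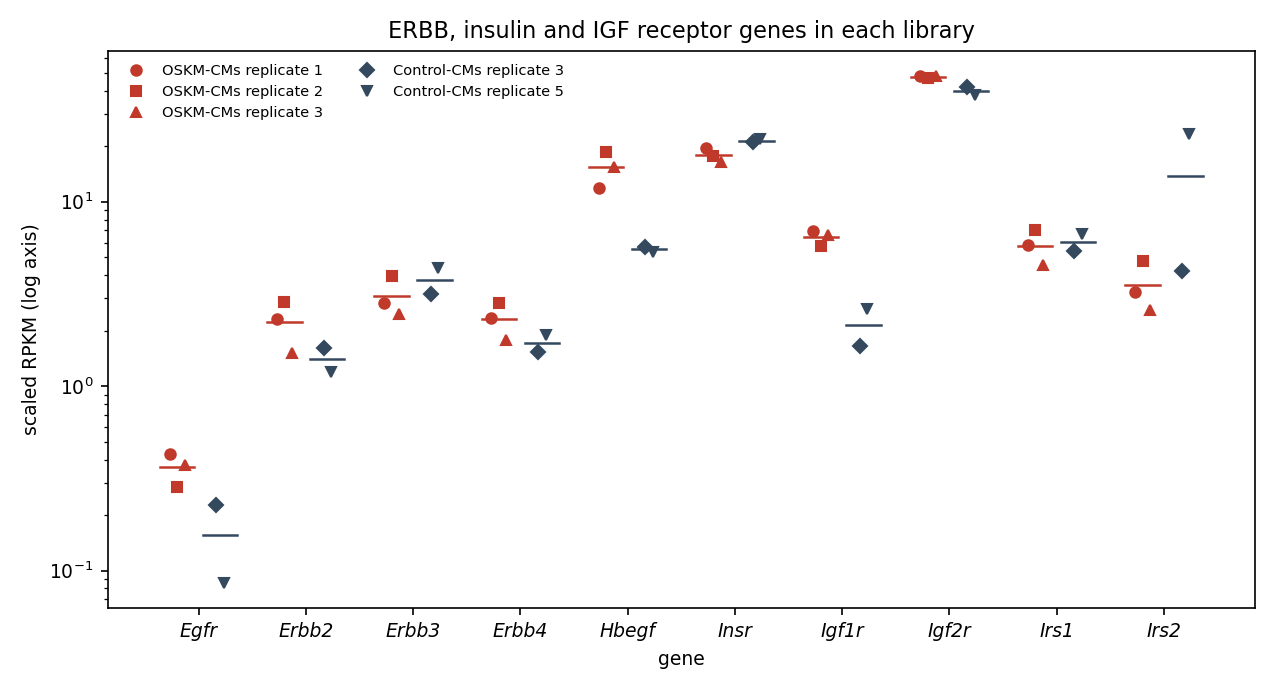
Scaled RPKM (log axis) of the 10 genes in each of the 5 libraries, OSKM-CMs in red at left and Control-CMs in dark blue at right, with a line at each group's mean. Hbegf and Igf1r stand clear of the controls, and Irs2 is high in Control-CMs replicate 5 alone.

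Levels per gene length ordered the members from Igf2r at the top to Egfr at the bottom in both groups. In OSKM-CMs the means ran Igf2r 47.5, Insr 17.8, Hbegf 15.4, Igf1r 6.43, Irs1 5.79, Irs2 3.54, Erbb3 3.08, Erbb4 2.32, Erbb2 2.22 and Egfr 0.364 scaled RPKM. In Control-CMs they ran Igf2r 39.9, Insr 21.4, Irs2 13.8, Irs1 6.03, Hbegf 5.53, Erbb3 3.78, Igf1r 2.14, Erbb4 1.72, Erbb2 1.40 and Egfr 0.157. Igf1r thus ranked 4 in OSKM-CMs and 7 in Control-CMs. Neighbours whose library ranges did not overlap in OSKM-CMs were Igf2r and Insr, Hbegf and Igf1r, and Erbb2 and Egfr; the other neighbouring pairs overlapped. In Control-CMs the pairs that did not overlap were Igf2r and Insr, Hbegf and Erbb3, Erbb3 and Igf1r, and Erbb2 and Egfr. Igf2r was above 92.7% of all listed genes in OSKM-CMs and above 90.9% in Control-CMs, whereas Egfr was above 2.71% and 2.19%.

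Hbegf (ENSMUSG00000024486.5) encodes heparin-binding EGF-like growth factor, a membrane-anchored ligand of EGFR and ERBB4 that is released by proteases. It had 11.9, 18.7 and 15.4 scaled RPKM (87, 138 and 112 reads) in OSKM-CMs replicates 1, 2 and 3, against 5.70 and 5.35 (42 and 39 reads) in Control-CMs replicates 3 and 5. All 3 OSKM libraries were above both controls, and the controls lay close together. The means were 15.4 ± 3.37 (SD, n = 3) in OSKM-CMs and 5.53 ± 0.252 (SD, n = 2) in Control-CMs, a log2 fold change of 1.31 (SE 0.19, 95% interval 0.86 to 1.75, limma adjusted p = 0.00241). Hbegf passed with each of the 5 libraries left out in turn, with library totals in place of TMM (1.67) and with limma voom (1.44). Within OSKM-CMs it was highest in replicate 2, the library with the lowest sums of fibroblast markers (92.0) and endothelial markers (45.0). Erbb2, Erbb3, Erbb4, Irs1 and Irs2 were also highest in that library among OSKM-CMs. The part of other cells in this order was not tested.

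The 4 ERBB receptors, to which such ligands bind, were read at low levels and none was called. Together they summed to 7.92, 9.92 and 6.11 scaled RPKM in OSKM-CMs replicates 1, 2 and 3, against 6.55 and 7.56 in Control-CMs replicates 3 and 5, so the groups overlapped.

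Erbb2 (ENSMUSG00000062312.5), the partner receptor with no known ligand of its own, had 2.32, 2.84 and 1.51 scaled RPKM in OSKM-CMs replicates 1, 2 and 3, against 1.61 and 1.19 in Control-CMs replicates 3 and 5. OSKM-CMs replicate 3 fell between the controls. The log2 fold change of 0.41 (95% interval -0.13 to 0.95, limma adjusted p = 0.222) did not pass, nor did it with library totals alone (0.66, limma adjusted p = 0.0536). It was 0.26 without OSKM-CMs replicate 2 and rested on 107 reads in OSKM-CMs and 45 in Control-CMs.

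Erbb4 (ENSMUSG00000062209.8), the neuregulin receptor that carries its own active kinase, had 2.35, 2.83 and 1.77 scaled RPKM in OSKM-CMs replicates 1, 2 and 3, against 1.54 and 1.90 in Control-CMs replicates 3 and 5. The groups overlapped in a single library, OSKM-CMs replicate 3. Its log2 fold change was 0.28 (95% interval -0.20 to 0.75, limma adjusted p = 0.340), on 265 reads in OSKM-CMs and 131 in Control-CMs. It was 0.16 without OSKM-CMs replicate 2 and 0.19 without Control-CMs replicate 3.

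Erbb3 (ENSMUSG00000018166.8), a neuregulin receptor with a largely inactive kinase, had 2.82, 3.96 and 2.45 scaled RPKM in OSKM-CMs replicates 1, 2 and 3, against 3.17 and 4.39 in Control-CMs replicates 3 and 5. It had the highest mean of the 4 ERBB receptors in both groups. The log2 fold change was -0.23 (95% interval -0.74 to 0.27, limma adjusted p = 0.447), and its sign turned to 0.090 with library totals alone. It was -0.049 without Control-CMs replicate 5, -0.12 without OSKM-CMs replicate 3, -0.39 without OSKM-CMs replicate 2 and -0.42 without Control-CMs replicate 3, and passed in none of these. It rested on 171 reads in OSKM-CMs and 140 in Control-CMs. ERBB3 is well known from Schwann cells, and of the Schwann cell markers S100b was higher in OSKM-CMs; its part in the level of Erbb3 was not tested.

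Egfr (ENSMUSG00000020122.9), the receptor of EGF and HB-EGF, was at the edge of detection with 0.431, 0.284 and 0.375 scaled RPKM (15, 10 and 13 reads) in OSKM-CMs replicates 1, 2 and 3, against 0.228 and 0.0862 (8 and 3 reads) in Control-CMs replicates 3 and 5. All OSKM libraries lay above both controls. The ratio of OSKM-CMs over Control-CMs from 38 and 11 reads was 2.31, with an exact 95% counting interval of 1.16 to 5.01, which covers counting error alone. With no filter on low values its log2 fold change was 0.24 (limma adjusted p = 0.249), and limma voom with no filter gave 1.25 (adjusted p = 0.122), so the difference did not pass. These settings called 27.5% and 30.4% of all listed genes.

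The make-up of the ERBB receptor pool can be read within each library, free of scaling between libraries. Erbb3 took 35.6%, 39.9% and 40.1% of the summed ERBB receptor RPKM in OSKM-CMs replicates 1, 2 and 3, against 48.4% and 58.1% in Control-CMs replicates 3 and 5, and Erbb4 took 28.6% to 29.6% in OSKM-CMs against 23.5% and 25.1%. For both shares the groups did not overlap. Erbb2 took 24.7% to 29.3% in OSKM-CMs and 24.6% and 15.7% in Control-CMs replicates 3 and 5. Erbb2 stood close to Erbb4 in 4 libraries, with ratios of Erbb2 over Erbb4 of 0.988, 1.003 and 0.852 in OSKM-CMs replicates 1, 2 and 3, against 1.05 and 0.627 in Control-CMs replicates 3 and 5. This ratio differed by 0.22 on the log2 scale (exact permutation test, p = 0.7), and without Control-CMs replicate 5 by -0.15. Egfr over Erbb4 was 0.184, 0.1001 and 0.212 in OSKM-CMs replicates 1, 2 and 3, against 0.148 and 0.0455 in Control-CMs replicates 3 and 5, and the groups overlapped (log2 difference 0.94, exact permutation test, p = 0.3). That difference was 0.089 without Control-CMs replicate 5 and 1.79 without Control-CMs replicate 3.

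**Figure D2:**
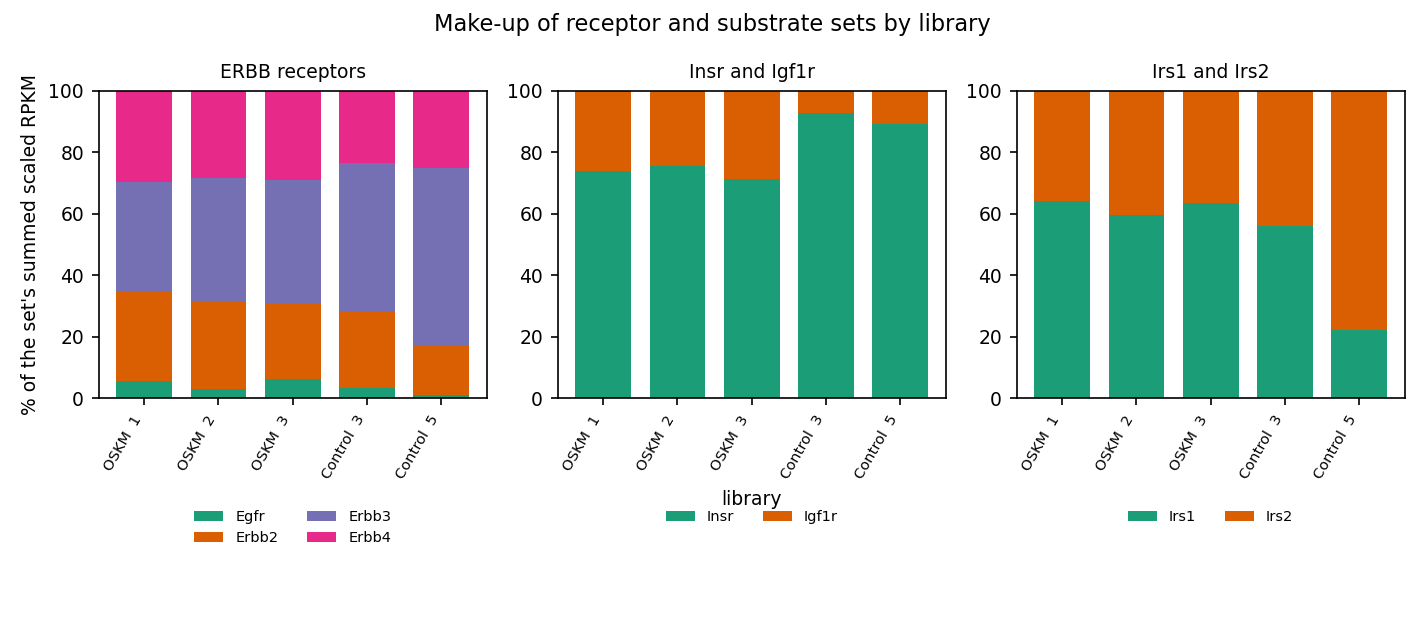
Stacked bars give each gene's percentage of the summed scaled RPKM of its set (y axis, 0 to 100%) in the 5 libraries, OSKM-CMs at left and Control-CMs at right, for the ERBB receptors, for Insr with Igf1r and for Irs1 with Irs2. Igf1r takes 24.6% to 28.6% of the Insr and Igf1r sum in OSKM-CMs and 7.33% and 10.8% in Control-CMs.

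Igf1r (ENSMUSG00000005533.8), the receptor of IGF1, showed the largest rise of the members tested by fold of mean RPKM. Its level was 6.93, 5.76 and 6.59 scaled RPKM (95, 80 and 90 reads) in OSKM-CMs replicates 1, 2 and 3, against 1.66 and 2.62 (23 and 36 reads) in Control-CMs replicates 3 and 5. All 3 OSKM libraries were above both controls and lay close together. The means were 6.43 ± 0.603 (SD, n = 3) in OSKM-CMs and 2.14 ± 0.681 (SD, n = 2) in Control-CMs, and the log2 fold change was 1.25 (SE 0.19, 95% interval 0.82 to 1.69, limma adjusted p = 0.00264). The call held with each library left out in turn, at log2 fold changes of 1.04 without Control-CMs replicate 3 and 1.497 without Control-CMs replicate 5. The value ran from 0.68 with 5 added before logs to 1.60 with limma voom, and every one of the 12 alternatives passed. Igf1r was lowest of the OSKM libraries in replicate 2, which also had the lowest fibroblast marker sum. Igf2r and Egfr were lowest in that library too among OSKM-CMs. Whether other cells had a part in this was not tested.

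Insr (ENSMUSG00000005534.8), the insulin receptor, went the other way by a small amount. It had 19.5, 17.6 and 16.4 scaled RPKM in OSKM-CMs replicates 1, 2 and 3, against 21.0 and 21.8 in Control-CMs replicates 3 and 5. All OSKM libraries lay below both controls, but the log2 fold change of -0.25 (95% interval -0.55 to 0.04, limma adjusted p = 0.175) did not pass. With library totals alone it was 0.15, so the sign depends on the scaling.

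Igf2r (ENSMUSG00000023830.7) was the most abundant member, at 47.8, 46.6 and 48.0 scaled RPKM in OSKM-CMs replicates 1, 2 and 3, against 42.1 and 37.8 in Control-CMs replicates 3 and 5. The OSKM libraries lay close together and above both controls. Its log2 fold change was 0.25 (95% interval -0.01 to 0.51, limma adjusted p = 0.137) and did not pass. With library totals alone Igf2r passed at 0.66 (limma adjusted p = 0.00536), a scaling that moved the median of all tested genes to 0.36 and called 36.5% of them higher and 5.96% lower. How the authors' counting treated strand is not given in the sources used here, so reads of the antisense RNA Airn, which overlaps the start of Igf2r, cannot be told apart from those of Igf2r.

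Ratios within a library do not depend on scaling between libraries. Insr exceeded Igf1r by 2.81, 3.06 and 2.49 times in OSKM-CMs replicates 1, 2 and 3, against 12.6 and 8.30 times in Control-CMs replicates 3 and 5. The ratio was thus 3.69-fold lower in OSKM-CMs, with no overlap between the groups, a log2 difference of -1.88. Igf2r exceeded Igf1r by 6.90, 8.10 and 7.29 times in OSKM-CMs replicates 1, 2 and 3, against 25.3 and 14.4 times in Control-CMs replicates 3 and 5, a log2 difference of -1.37. Both had an exact two-sided permutation p of 0.1, the smallest that the 10 arrangements of 5 libraries allow, so this test could not reach 0.05 (adjusted p = 0.167 over the 5 pairs compared). Insr and Igf1r together summed to 26.4, 23.4 and 23.0 scaled RPKM in OSKM-CMs replicates 1, 2 and 3, against 22.7 and 24.4 in Control-CMs replicates 3 and 5, ranges that overlapped.

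**Figure D3:**
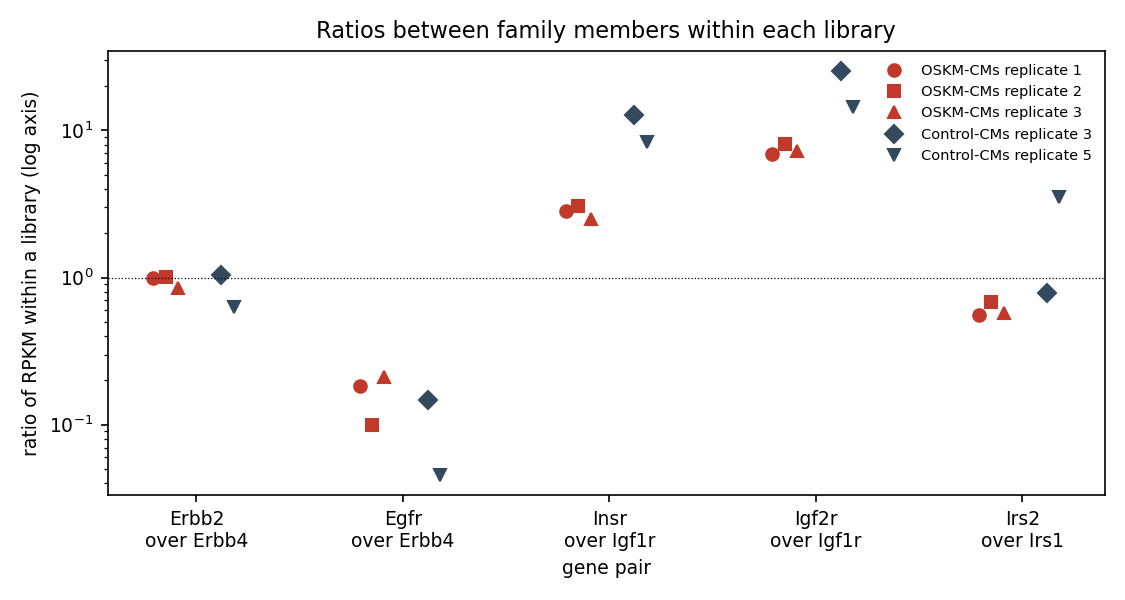
Ratios of RPKM between 2 family members within a library (log axis), one point per library, OSKM-CMs in red at left and Control-CMs in dark blue at right of each pair. Insr over Igf1r lies between 2.49 and 3.06 in OSKM-CMs and at 12.6 and 8.30 in Control-CMs.

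Irs1 (ENSMUSG00000055980.2), an adaptor that links activated insulin and IGF1 receptors to PI3K, had 5.79, 7.05 and 4.53 scaled RPKM in OSKM-CMs replicates 1, 2 and 3, against 5.38 and 6.67 in Control-CMs replicates 3 and 5. The groups overlapped widely. The log2 fold change was -0.06 (95% interval -0.52 to 0.40, limma adjusted p = 0.843). It turned to 0.30 with library totals alone.

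Irs2 (ENSMUSG00000038894.6), the other such adaptor, was set apart by 1 library. Its level was 3.23, 4.78 and 2.60 scaled RPKM (40, 60 and 32 reads) in OSKM-CMs replicates 1, 2 and 3, against 4.24 and 23.4 (53 and 290 reads) in Control-CMs replicates 3 and 5. Control-CMs replicate 3 lay inside the OSKM range, and replicate 5 was 5.52-fold above replicate 3. A gap between the controls at least as large as this, 2.22 on the log2 scale of RPKM plus 1, was found for 34 of 10915 tested genes, or 0.311%. The log2 fold change was -1.35 (SE 0.68, 95% interval -3.07 to 0.38, limma adjusted p = 0.1998). It was -0.24 without Control-CMs replicate 5 (limma adjusted p = 0.601) and passed at -2.46 without Control-CMs replicate 3 (limma adjusted p = 0.00297). The authors' deposited table gave Irs2 a log2 fold change of -1.95 with an FDR of 0.000958, from all 5 libraries. The ratio of Irs2 over Irs1 was 0.558, 0.679 and 0.573 in OSKM-CMs replicates 1, 2 and 3, against 0.787 and 3.51 in Control-CMs replicates 3 and 5, with an exact permutation p of 0.1, again the smallest possible. The log2 difference of -1.47 was -0.39 without Control-CMs replicate 5 and -2.55 without Control-CMs replicate 3.

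In the authors' deposited table, 3 of the 10 members had an FDR below 0.05, against 31.8% of all 12446 genes: Igf1r (log2 fold change 1.56, FDR 4.60e-07) and Hbegf (1.47, FDR 8.63e-06) as higher, and Irs2 as lower. The other members had FDR values from 0.0734 for Egfr to 0.896 for Irs1 in the authors' deposited table.

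**Figure D4:**
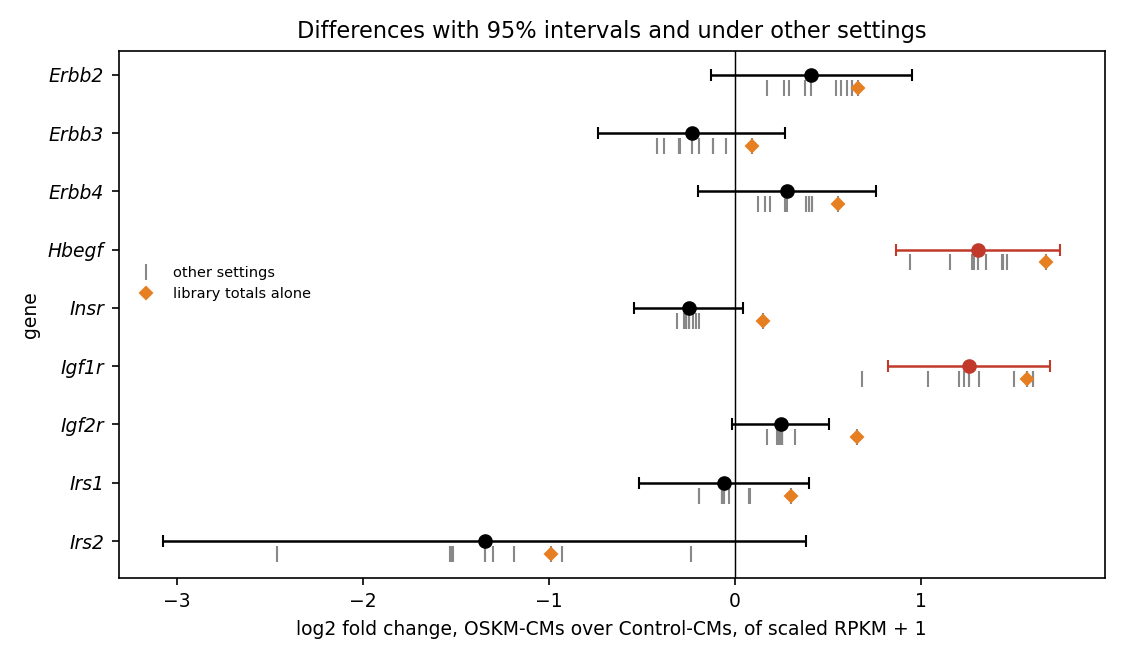
Log2 fold changes of OSKM-CMs over Control-CMs for the 9 tested members (circles, red where the adjusted p is below 0.05) with 95% intervals; grey ticks give the other settings and orange diamonds library totals alone. Hbegf at 1.31 and Igf1r at 1.25 lie to the right of 0 under every setting, while the interval of Irs2 runs from -3.07 to 0.38.

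The other genes of the same pathways were taken from lists by role, and their counts stand beside 15.9% higher and 14.3% lower among all tested genes. Leaving out a library also changed the calls over all genes, beside which lost and gained calls stand. With all libraries 3298 of 10915 genes were called. Without OSKM-CMs replicate 1 it was 2261 of 10839, without replicate 2 3066 of 10847 and without replicate 3 2215 of 10868. Among the ERBB ligands other than Hbegf, 5 of 10 were listed and 2 were tested, of which 0 passed. Egf, the founding ligand of EGFR, had 1.30, 1.35 and 0.274 scaled RPKM in OSKM-CMs replicates 1, 2 and 3, against 1.76 and 3.07 in Control-CMs replicates 3 and 5 (log2 fold change -0.82, limma adjusted p = 0.0967). Nrg1, the gene of the neuregulin that binds ERBB3 and ERBB4, had 7, 2 and 8 reads in OSKM-CMs replicates 1, 2 and 3 and 0 in both Control-CMs libraries. It was below the filter on low values and was not tested. Among 8 tested proteases and cofactors that shed ERBB ligands, 2 were higher and 0 lower, with a median log2 fold change of 0.07. Adam9, a membrane protease, had 41.4, 33.4 and 47.7 scaled RPKM in OSKM-CMs replicates 1, 2 and 3, against 17.1 and 17.8 in Control-CMs replicates 3 and 5 (log2 fold change 1.17, limma adjusted p = 0.00193). The other call, Rhbdf2 (iRhom2, a cofactor of ADAM17; 0.59, limma adjusted p = 0.0364), was lost whichever library was left out. Higher calls of the list numbered 2 without OSKM-CMs replicate 2 and 1 without any other library.

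The list of ERBB inhibitors and degradation factors had 2 higher and 1 lower of 12 tested genes. Of the higher genes, Cd9 is a tetraspanin that associates with proHB-EGF and is neither an inhibitor nor a degradation factor of the receptors. It had 10.4, 8.19 and 14.0 scaled RPKM in OSKM-CMs replicates 1, 2 and 3, against 3.32 and 2.23 in Control-CMs replicates 3 and 5 (log2 fold change 1.64, limma adjusted p = 0.00234). It passed with every library left out in turn. Rnf41 (Nrdp1, a ubiquitin ligase of ERBB3) was higher at 0.59 (limma adjusted p = 0.0320) but passed only without Control-CMs replicate 5. Stub1 (CHIP, a ubiquitin ligase of ERBB2) was lower at -0.87 (limma adjusted p = 0.0138) and was lost without Control-CMs replicate 3. Without OSKM-CMs replicate 2 the list had 2 lower calls. Errfi1 (MIG6, a kinase inhibitor of EGFR) did not pass at -0.22 (limma adjusted p = 0.333).

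Ligands and binding proteins of the IGF system showed 0 calls among 7 tested genes of 10 listed. Igf1 had 28, 12 and 27 reads in OSKM-CMs replicates 1, 2 and 3, against 13 and 8 in Control-CMs replicates 3 and 5, and Igf2 had 10, 15 and 9 reads against 21 and 5. For both genes the libraries overlapped between groups once scaled, and both were below the filter. Leaving out OSKM-CMs replicate 2 gave 2 higher calls in this list, and leaving out OSKM-CMs replicate 1 gave 1 lower call. In the list of adaptors and inhibitors of the insulin and IGF1 receptors, 3 of 9 tested genes were higher and 1 lower. Their median log2 fold change was 0.39. The list also holds Ide, the insulin-degrading enzyme, which is neither and did not pass (-0.28, limma adjusted p = 0.339).

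The closely related adaptors Grb10 and Grb14, both inhibitors of the insulin receptor, moved in opposite directions. Grb10 had 25.9, 21.7 and 23.2 scaled RPKM in OSKM-CMs replicates 1, 2 and 3, against 13.2 and 14.6 in Control-CMs replicates 3 and 5 (log2 fold change 0.72, limma adjusted p = 0.00606). Grb14 had 13.3, 14.0 and 11.2 in OSKM-CMs replicates 1, 2 and 3, against 19.5 and 25.3 in Control-CMs replicates 3 and 5 (-0.75, limma adjusted p = 0.0115). Neither gene's libraries overlapped between groups. Grb14 was lost without Control-CMs replicate 5 (the highest adjusted p of limma over the 5 left-out libraries was 0.0742) and with library totals alone (-0.35, limma adjusted p = 0.0899). Socs2, a feedback inhibitor of cytokine and growth hormone signalling, was higher at 0.82 (limma adjusted p = 0.0111) and lost without Control-CMs replicate 5, and Ptprf (LAR, a receptor phosphatase), at 0.79 (limma adjusted p = 0.0212), passed only without OSKM-CMs replicate 2. Higher calls of this list numbered 4 without OSKM-CMs replicate 2, 2 without OSKM-CMs replicate 1 or 3 or without Control-CMs replicate 3, and 1 without Control-CMs replicate 5.

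Of 14 shared adaptors tested, 3 were higher and 2 lower. Gab2, a docking protein for SHP2 and PI3K, had 7.54, 5.09 and 8.06 scaled RPKM in OSKM-CMs replicates 1, 2 and 3, against 2.95 and 2.82 in Control-CMs replicates 3 and 5 (log2 fold change 1.0, limma adjusted p = 0.00901), and passed with each library left out. Nck2 (0.69), Ptpn11 (SHP2; 0.62), Plcg1 (phospholipase C gamma; -0.63) and Sos2 (a RAS exchange factor; -0.51) passed by limma with all libraries but with at most 2 of the 5 left out. Higher calls numbered 1 without OSKM-CMs replicate 1 or either Control-CMs library, and lower calls numbered 0 without OSKM-CMs replicate 3 or Control-CMs replicate 5 and 1 otherwise.

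**Figure D5:**
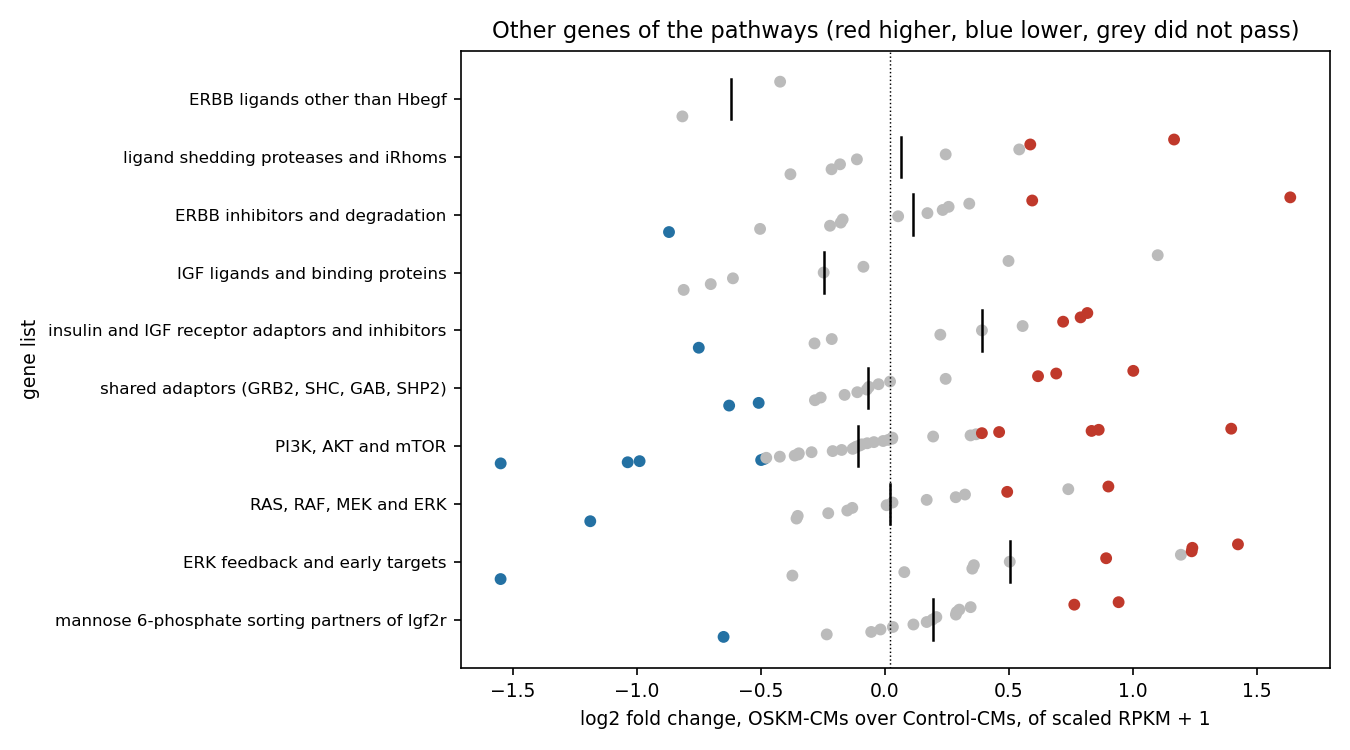
Log2 fold change of OSKM-CMs over Control-CMs (x axis) for each tested gene of 10 pathway lists (y axis), red where higher, blue where lower and grey where not past the adjusted p of 0.05; black bars are list medians and the dotted line the median of all tested genes. The list of ERK feedback and early targets has the highest median, 0.50, and holds 4 higher genes and 1 lower gene.

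The split of calls in these lists depended on the scaling. So did that of all genes: with library totals alone 36.5% of all 10915 tested genes were higher and 5.96% lower. Under this scaling the PI3K, AKT and mTOR list had 8 higher and 3 lower of 32 tested genes. The ERBB inhibitors had 5 and 0 of 12, the shedding proteases 3 and 0 of 8. The IGF ligands and binding proteins had 2 and 0 of 7, the receptor adaptors 4 and 0 of 9. The shared adaptors had 4 and 0 of 14, the RAS to ERK list 5 and 1 of 14. The ERK targets had 7 and 1 of 11, the sorting partners of Igf2r 7 and 0 of 15.

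The PI3K, AKT and mTOR genes downstream of these receptors split evenly, with 5 higher, 5 lower and 22 not passing of 32 tested. The lower genes with the largest changes were Slc2a4, Pik3r1 and Akt2. Slc2a4 (GLUT4, the glucose transporter that insulin brings to the cell surface) had 52.3, 64.3 and 46.9 scaled RPKM in OSKM-CMs replicates 1, 2 and 3, against 168 and 153 in Control-CMs replicates 3 and 5, 2.94-fold higher in Control-CMs (log2 fold change -1.55, limma adjusted p = 0.000481). Pik3r1, the p85 regulatory subunit of PI3K, had 10.4, 13.9 and 10.2 in OSKM-CMs replicates 1, 2 and 3, against 26.1 and 22.9 in Control-CMs replicates 3 and 5 (-1.04, limma adjusted p = 0.00327). Akt2, the AKT kinase tied to glucose uptake, had 13.0, 15.5 and 12.5 in OSKM-CMs replicates 1, 2 and 3, against 27.5 and 28.5 in Control-CMs replicates 3 and 5 (-0.99, limma adjusted p = 0.00188). In each of these genes every OSKM library lay below both controls. The summed cardiomyocyte markers were lower in the same libraries, and their part in these differences was not tested.

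Among the higher genes of that list, Eif4ebp1 (4E-BP1, a translation repressor that mTOR inactivates) had 127, 119 and 138 scaled RPKM in OSKM-CMs replicates 1, 2 and 3, against 45.4 and 50.4 in Control-CMs replicates 3 and 5 (log2 fold change 1.40, limma adjusted p = 0.000302). Foxo3, a transcription factor that AKT restrains, followed at 0.86 (limma adjusted p = 0.00272), and Pdpk1, the kinase that activates AKT, at 0.83 (limma adjusted p = 0.00421). All 3 passed with every library left out. Akt1 had 59.0, 53.2 and 56.0 in OSKM-CMs replicates 1, 2 and 3, against 39.1 and 46.2 in Control-CMs replicates 3 and 5 (0.39, limma adjusted p = 0.0477), a call lost in 4 of the 5 leave-outs. Foxo1, a target of AKT like Foxo3, did not pass at -0.11 (limma adjusted p = 0.705). Higher calls numbered 3 or 4 and lower calls 3 or 4 with a library left out, 3 in both directions without OSKM-CMs replicate 1, OSKM-CMs replicate 3 or Control-CMs replicate 5, and 3 higher without Control-CMs replicate 3.

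In the RAS, RAF, MEK and ERK list, 2 of 14 tested genes were higher and 1 lower. Nras, a RAS GTPase, had 12.2, 12.2 and 15.3 scaled RPKM in OSKM-CMs replicates 1, 2 and 3, against 7.66 and 5.62 in Control-CMs replicates 3 and 5 (log2 fold change 0.90, limma adjusted p = 0.00748). Rps6ka2, a ribosomal S6 kinase downstream of ERK, had 4.31, 5.56 and 4.27 in OSKM-CMs replicates 1, 2 and 3, against 13.4 and 10.7 in Control-CMs replicates 3 and 5 (-1.19, limma adjusted p = 0.00233). Both held with every library left out, whereas Map2k1 (MEK1; 0.49, limma adjusted p = 0.0461) was lost in each, which left 1 higher call in all leave-outs except that of OSKM-CMs replicate 2, with 2.

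Genes that ERK signalling induces, either as feedback inhibitors or as early targets, included 4 higher and 1 lower of 11 tested. Phlda1, an early target, had 11.8, 13.1 and 15.4 scaled RPKM in OSKM-CMs replicates 1, 2 and 3, against 3.79 and 4.99 in Control-CMs replicates 3 and 5 (log2 fold change 1.42, limma adjusted p = 0.00108). Etv5, an ETS transcription factor, and Dusp5, an ERK phosphatase, were both higher at 1.24 (limma adjusted p = 0.00239 and 0.0111). Egr1, an immediate early transcription factor, had 7.87, 8.07 and 5.05 in OSKM-CMs replicates 1, 2 and 3, against 16.5 and 29.3 in Control-CMs replicates 3 and 5 (-1.55, limma adjusted p = 0.00707). Within the list the genes thus differed in direction, and these 4 held with every library left out. Without OSKM-CMs replicate 2 the list had 5 higher calls, and without any other single library 3.

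The partners of Igf2r in mannose 6-phosphate sorting had 2 higher and 1 lower of 15 tested, with a median of 0.19. Vps29, a retromer subunit, had 16.7, 16.6 and 20.4 scaled RPKM in OSKM-CMs replicates 1, 2 and 3, against 9.91 and 7.79 in Control-CMs replicates 3 and 5 (log2 fold change 0.94, limma adjusted p = 0.00426). Snx2, a sorting nexin that works with retromer, followed at 0.76 (limma adjusted p = 0.00357). Tgfb1, whose latent form binds IGF2R, was lower at -0.65 (limma adjusted p = 0.0459) on 5 to 8 reads per OSKM library and 17 and 13 in Control-CMs, and was lost whichever library was left out. Without OSKM-CMs replicate 2 there were 3 higher calls.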

How the data were processed

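Total RNA of isolated cardiomyocytes was sequenced on Illumina instruments. Per the submitters' processing notes the tools included STAR 2.5.3 and HTSeq, with Trimmomatic, FastQC and CASAVA 1.8.2, and the build was mm9; annotation, strand and the handling of reads with several matches are not given in the sources used here. The authors deposited 12446 genes with RPKM per library (a unit read from the values, which cannot tell it from FPKM) and their own log2 fold changes, log2 CPM, likelihood ratio scores, p-values and FDR. Each listed gene reached 1 CPM in 2 or more libraries.

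RPKM values were whole multiples of the value of 1 read, which gave reads for 12446 genes (100%, within 0.0001 reads). For 440 genes the multiple was set by whole gene length and abundance. RPKM were scaled by TMM (trims of 30% and 5%), filtered at a mean deposited RPKM of 1 (10915 genes) and tested as log2(value + 1) with limma 3.58.1 in R 4.3.3 (trend and robust variance, 3 residual degrees of freedom, 2-sided, Benjamini-Hochberg over all genes), OSKM-CMs over Control-CMs. Ratios within a library were compared by exact permutation. Counting intervals (95%, exact) cover counting error only. The fits and the recovery of reads were tested on simulated data. In the simulated fits few genes differed, in equal numbers up and down, so they could not test scaling where many genes differ. Alternatives changed the added constant, the filter, the scaling and the libraries, or used limma voom on recovered reads.

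The members and gene lists were chosen with earlier results of these data known. Besides the members, the text names up to 3 higher and 3 lower genes of each pathway list by size of change, and a fixed set of ligands, inhibitors and kinases.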

Additional observations from a re-analysis of the deposited data

How the results depend on the processing

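Hbegf and Igf1r passed as higher under all 12 alternatives, at log2 fold changes of 0.94 to 1.67 and 0.68 to 1.60. With library totals in place of TMM, 3985 genes were higher and 650 lower, against 1740 and 1558, the median of all tested genes was 0.36 in place of 0.02, and signs turned for Erbb3 (0.090), Insr (0.15) and Irs1 (0.30), none past the threshold. With a library left out Irs1 ran from -0.19 to 0.079, turning without OSKM-CMs replicate 3 or Control-CMs replicate 5. The count of members lower was 0 to 1 with a library left out. It was 1 without Control-CMs replicate 3, through Irs2. The difference between groups in the log2 ratio of Erbb2 over Erbb4 ran from -0.15 (without Control-CMs replicate 5) to 0.59. That of Egfr over Erbb4 turned to -0.040 with 1 added before logs. The cause was not tested. Limma voom with no filter, and the pathway lists under other settings, were chosen after seeing the data. Low reads limit Egfr, Nrg1 and Igf1. The labels give no pairing of libraries between the groups, so no paired analysis was run.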
